A study of Homo sapiens with 12 samples.

Results

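The MYC, MAX and MXD network is the set of 10 genes MYC, MYCN, MYCL, MAX, MXD1, MXD3, MXD4, MXI1, MNT and MGA, taken by symbol and matched to Ensembl identifiers. All 10 were among the 60662 genes of the RNA count files and the 12224 genes of the translation table. The samples were HEK293T cells, an established human embryonic kidney line labelled wild type. For 6 h, the treated arm was kept in STM2457 at 20 µM, which blocks the catalytic activity of METTL3, the main m6A writer enzyme of mRNA, with DMSO at 0.2%, and the control arm in DMSO at 0.2%. Both arms also received an additional 10% fetal bovine serum 1 h before lysis and 100 µg/ml cycloheximide, which holds ribosomes on mRNA, for the last 3 min, so every value below describes serum-boosted cells. RNA-seq used polyadenylated RNA from 4 replicates per arm, and ribosome profiling used 2 replicates per arm, with footprints of 26 to 34 nt. Because no label states that replicates are independent cultures, the spread that enters each p-value is that between libraries and may be only technical. For each gene that spread is estimated in part from other genes, most of all for footprints with 2 libraries per arm. A small p-value is then not a measure of the gene's own spread alone.

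MYC, MYCN and MYCL are transcription factors of the basic helix-loop-helix leucine zipper class. They bind DNA only as dimers with MAX, and these dimers recruit activating cofactors to genes of ribosome production and growth. MXD1, MXD3, MXD4, MXI1 and MNT compete for the same partner, MAX, and recruit the SIN3 histone deacetylase corepressor, whereas the large protein MGA pairs with MAX within a Polycomb repressive complex. MYC mRNA is short-lived, responds to serum, and carries a coding region element bound by IGF2BP proteins. m6A is a methyl mark on adenosine of mRNA that reader proteins such as YTHDF2 couple to mRNA decay.

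The DNA element shared by the network's dimers is the E-box CACGTG, which is its own reverse complement and so reads alike on both strands. It is shown here because it is the sequence through which these dimers are known to bind DNA. RefSeq promoter windows (GRCh38.p14, 250 bases before to 50 bases after each gene start) were at hand for 9 of the 10 members, with 14 windows in all. No window was at hand for MYC, so its promoter was not searched. The letters CACGTG occurred in windows of 2 members, MXD4 and MNT, against 7.26% of all 35116 windows of 300 bases, 8.77% of the 27305 genes with a window, and 12.3% of the 12103 genes with a window that were tested in RNA. The stretches that hold it are printed with the E-box in capitals, 5′ to 3′ on the gene's strand. They lie at chr4:2262308-2262359, minus strand, with the motif beginning 238 bases before the start of MXD4, and at chr17:2401214-2401273, minus strand, 193 bases before the start of MNT. A match is a description of these letters and not a measured binding site.
MXD4: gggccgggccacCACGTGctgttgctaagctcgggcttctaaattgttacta
MNT: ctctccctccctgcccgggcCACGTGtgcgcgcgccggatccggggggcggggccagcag

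The RNA-seq libraries had total counts between 43291730 and 51645739, and the recovered footprint reads numbered 3198063 to 4711513 per library. METTL3 RNA, at a log2 fold change of 0.14, missed the threshold (edgeR adjusted p = 0.104), and the RNA level of an inhibited enzyme does not check the inhibition. All 8 genes listed as HEK293T markers passed the filter on low counts. Their summed level was 1240 to 1281 CPM with DMSO and 1211 to 1240 CPM with STM2457. Of these 8, 2 (25.0%) were called higher and 1 (12.5%) lower, against 26.2% and 21.6% of all tested genes. Of the 18 markers listed for fibroblasts, epithelial carcinoma lines and blood cells, 6 passed the filter, with summed levels per list between 1.98 and 22.5 CPM, and KRT5 and HBG1 had no count in any library. None of these 6 passed the RNA test, and their part in the results below was not tested. With the spike-in scaling described below 4 of the 6 passed as lower, against 47.1% of all genes.

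The comparison asks how the RNA, the ribosome footprints and the translational efficiency of these genes differ when m6A deposition is inhibited. RNA was compared in CPM, counts scaled to a common library size with TMM factors, which set the typical gene to no change, and tested with edgeR's quasi-likelihood test over 17807 genes. MYC RNA rose 2.41-fold, the largest RNA change in the network, and its footprints rose by a like factor. MYCL RNA rose 1.49-fold. MAX, MXD1, MXD3, MXD4, MNT and MGA rose by smaller factors, from 1.08-fold for MXD4 to 1.23-fold for MAX and 1.25-fold for MXD3. MYCN and MXI1 did not pass the test. In all, 8 of 10 members were called higher and 0 lower, against 26.2% of all tested genes called higher and 21.6% lower. The count fell to 2 higher (MYC and MYCL) and 1 lower (MXI1) when libraries were scaled to the ERCC spike-ins, RNAs of known amount added to each sample. In that scaling 12.1% of all genes were called higher and 47.1% lower. In bulk RNA a difference in cell number and one in RNA per cell cannot be told apart. Without the fourth STM2457 library, which had the largest spike-in share, spike-in scaling called 3 members higher (MYC, MYCL and MAX) and 1 lower (MXI1), against 13.6% and 41.6% of all genes.

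MYC (ENSG00000136997.19), the network's main growth-driving activator, stood at 128, 125, 127 and 131 CPM in the DMSO libraries and at 315, 306, 296 and 315 CPM in the STM2457 libraries. Every STM2457 library lay above every DMSO library, and the gap between the arms was many times the spread within either. The means were 128 ± 2.46 and 308 ± 9.31 CPM (SD, n = 4), a log2 fold change of 1.27 (SE 0.03, edgeR adjusted p = 9.07e-12). Among 17807 genes, 118 had a larger RNA increase. The change was 1.28 within replicates 1 and 2, 1.24 within replicates 3 and 4, and 1.07 with spike-in scaling, each past the test.

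MYCL (ENSG00000116990.11), a MYC paralog, was at 10.9, 9.54, 9.25 and 10.1 CPM with DMSO and at 16.3, 14.0, 15.4 and 13.5 CPM with STM2457. The arms did not overlap, although the STM2457 libraries of MYCL spread more widely than those of MYC relative to their mean. The log2 fold change was 0.57 (SE 0.07, edgeR adjusted p = 2.6e-05) and stayed past the test with spike-in scaling at 0.38.

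MYCN (ENSG00000134323.12), the paralog best known from neural progenitors and neuroblastoma, had 22 to 31 counts per library with DMSO and 24 to 40 with STM2457. Its levels were 0.477, 0.501, 0.466 and 0.602 CPM against 0.812, 0.505, 0.799 and 0.643 CPM, and the arms overlapped. The log2 fold change of 0.43 (95% confidence interval 0.01 to 0.84) did not pass over all genes (edgeR adjusted p = 0.0835). Without the STM2457 library of replicate 2 it passed, at 0.55 (edgeR adjusted p = 0.0263), so the call turns on a single library.

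MAX (ENSG00000125952.19), the shared partner of the other members, was at 99.4, 99.0, 95.1 and 97.5 CPM with DMSO and at 121, 121, 119 and 119 CPM with STM2457. The libraries of each arm lay close together and the arms were clearly apart. The means were 97.8 ± 1.93 and 120 ± 1.43 CPM (SD, n = 4), a log2 fold change of 0.30 (SE 0.02, edgeR adjusted p = 6.33e-07). With spike-in scaling the value was 0.10 and did not pass (edgeR adjusted p = 0.0983).

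**Figure D1:**
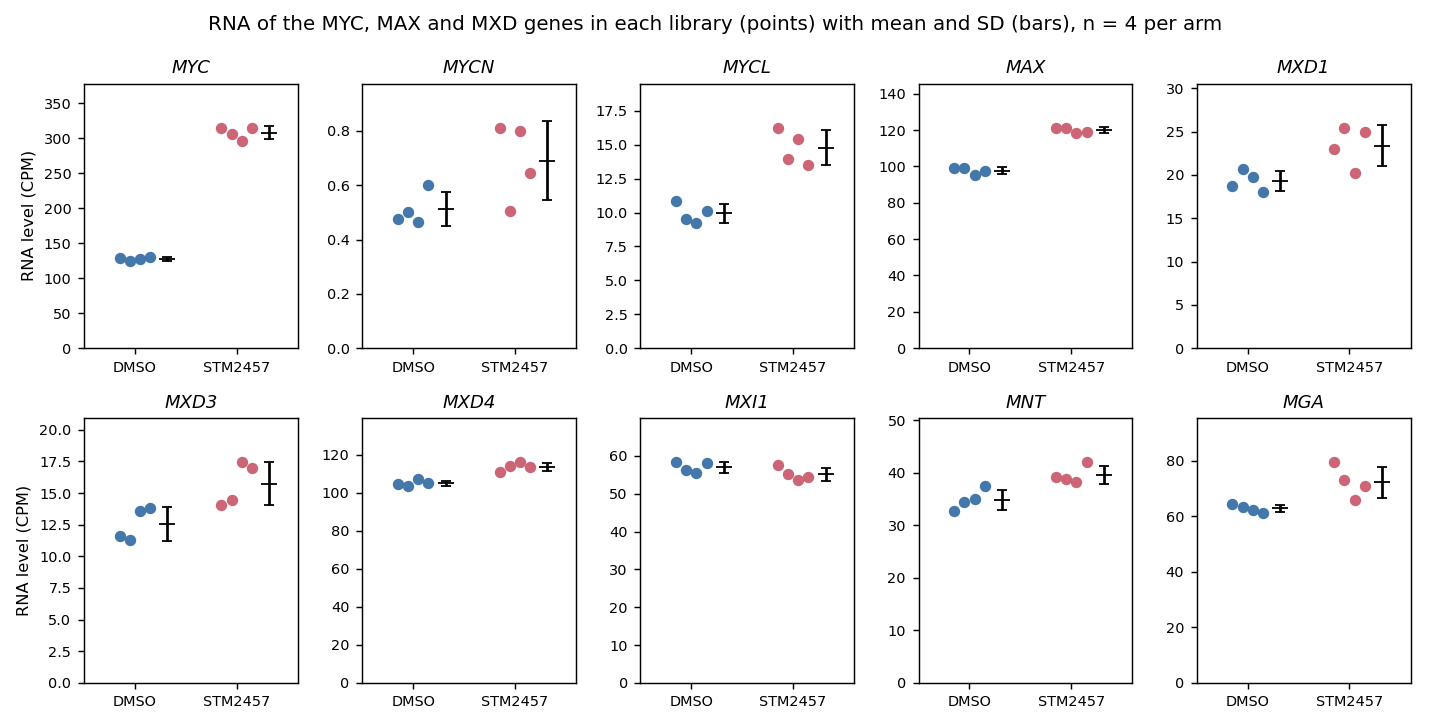
RNA level in CPM (y axis, from 0, own scale per gene) of each of the 10 network genes in every DMSO and STM2457 library (points), with mean and SD beside them (bars, n = 4 per arm). MYC separates the arms most, at 125 to 131 against 296 to 315 CPM, whereas the MXI1 and MXD1 libraries of both arms overlap.

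The MXD repressors gave small and uneven changes. MXD1 (ENSG00000059728.11), induced in many cells as they leave the cell cycle, was at 18.8, 20.7, 19.7 and 18.1 CPM with DMSO and at 23.0, 25.5, 20.2 and 24.9 CPM with STM2457. The third STM2457 library lay within the DMSO range, so the arms overlapped, although the log2 fold change of 0.28 passed (SE 0.07, edgeR adjusted p = 0.0057). MXD3 (ENSG00000213347.10), the member of the group most tied to S phase, was at 11.6, 11.3, 13.6 and 13.8 CPM against 14.1, 14.4, 17.4 and 17.0 CPM. In both arms replicates 3 and 4 of MXD3 were above replicates 1 and 2, and the STM2457 libraries were above the DMSO libraries within each of those pairs. Its log2 fold change was 0.33 over all libraries (SE 0.09, edgeR adjusted p = 0.00803), 0.31 within replicates 1 and 2, and 0.33 within replicates 3 and 4.

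MXD4 (ENSG00000123933.17), a repressor whose promoter window holds the E-box shown above, was at 104, 103, 107 and 105 CPM against 111, 114, 116 and 113 CPM. The arms did not overlap, but the log2 fold change was only 0.11 (SE 0.02, edgeR adjusted p = 0.00188), and it turned to -0.08 with spike-in scaling (edgeR adjusted p = 0.191). MXI1 (ENSG00000119950.21), also named MXD2, was at 58.3, 56.3, 55.4 and 58.1 CPM against 57.5, 55.2, 53.6 and 54.4 CPM. The arms of MXI1 overlapped, and the log2 fold change of -0.05 (95% confidence interval -0.12 to 0.02) did not pass (edgeR adjusted p = 0.258). MXI1 passed as lower with spike-in scaling, at -0.24 (edgeR adjusted p = 0.000546). It also passed in the RNA signal of the translation table, at -0.11 (limma adjusted p = 0.0261). In that signal 7 of 9 tested members were called higher and 1 lower, against 27.4% and 34.6% of all genes, and MXD4, at 0.03, did not pass.

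MNT (ENSG00000070444.15), the broadly expressed MAX-binding repressor whose promoter window also holds the E-box, was at 32.7, 34.4, 34.98 and 37.4 CPM against 39.2, 38.9, 38.3 and 42.0 CPM. The arms did not overlap, with the highest DMSO library within 1 CPM of the lowest STM2457 library. The log2 fold change was 0.18 (SE 0.05, edgeR adjusted p = 0.00483). It did not pass within replicates 3 and 4 alone, at 0.15 (edgeR adjusted p = 0.0773), and with spike-in scaling it turned to -0.01. MGA (ENSG00000174197.16), the scaffold that carries both a MAX-binding region and a T-box domain, was at 64.5, 63.1, 62.4 and 61.1 CPM against 79.3, 73.0, 65.7 and 70.7 CPM. The MGA arms did not overlap, and the STM2457 libraries varied more (SD 5.64) than the DMSO libraries (SD 1.41). Its log2 fold change was 0.20 (SE 0.05, edgeR adjusted p = 0.0037) and was 0.00 with spike-in scaling.

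Across the network, 7 of 10 members had STM2457 libraries that all lay above the DMSO libraries, against 24.9% of all tested genes, and 0 had them all below, against 19.8%. Within replicates 1 and 2 edgeR called 8 members higher (24.2% of all genes) and 0 lower (20.1%), and within replicates 3 and 4 it called 7 higher (20.7%) and 0 lower (15.4%). The network's median log2 fold change was 0.29 where that of all genes was 0.00 with TMM scaling. With spike-in scaling the network's median was 0.09 and that of all genes -0.19, and the 6 smaller increases were then between -0.08 (MXD4) and 0.13 (MXD3).

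Counts of MYC relative to another member within a library are free of any scaling between libraries, although they are not per length and so do not compare amounts of the RNAs. MYC counts per MAX count ranged from 1.26 to 1.34 in the DMSO libraries and from 2.49 to 2.65 in the STM2457 libraries, with means of 1.31 ± 0.0384 and 2.56 ± 0.0708 (SD, n = 4). Per MXI1 count they went from 2.24 ± 0.0425 to 5.58 ± 0.142, a 2.49-fold difference and the largest against any member. Against MYCL the ratio differed least, by 1.62-fold. In all 9 ratios the lowest STM2457 library was above the highest DMSO library. All 9 share the MYC counts, so they restate the rise of MYC and are not 9 separate results. The share of other gene ratios with such separation was not computed.

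**Figure D2:**
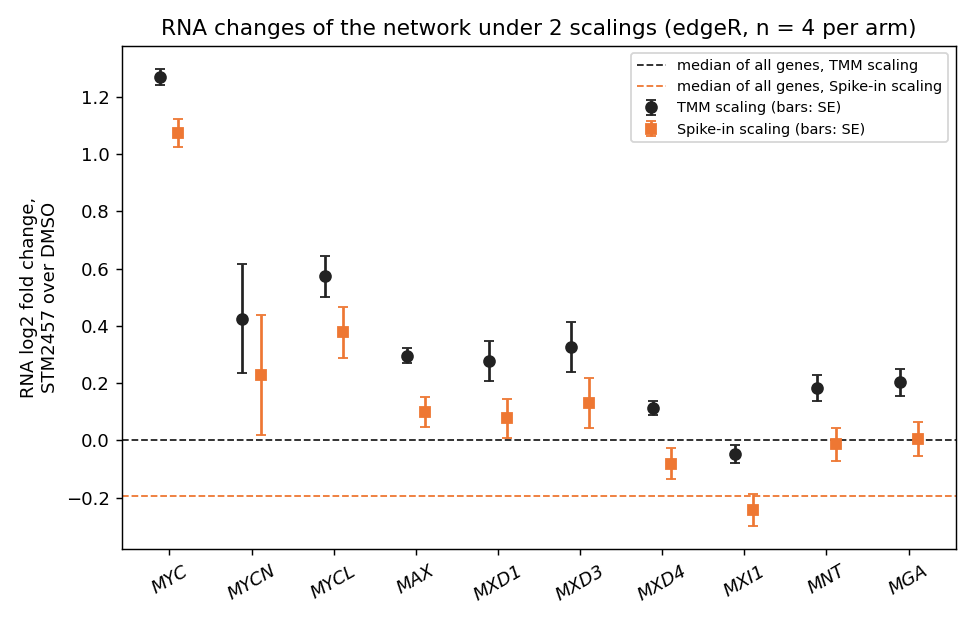
RNA log2 fold change of STM2457 over DMSO (y axis) for each member with TMM scaling (circles) and with spike-in scaling (squares), bars giving the SE from edgeR and dashed lines the median of all tested genes. MYC (1.27 and 1.07) and MYCL (0.57 and 0.38) stay well above both lines. MXD4 and MNT cross 0 with spike-in scaling but stay above its line at -0.19, whereas MXI1, at -0.24, lies below it.

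Ribosome footprints were compared as the authors' normalized signal, and limma was run on log2(signal + 1) for the 10906 genes that averaged 10 or more recovered footprint reads in a library. MYCN, with 1 to 3 footprint reads per library, fell below that filter. Of the other 9 members MYC was called higher and 0 were called lower, against 9.59% of all tested genes higher and 6.13% lower. The edgeR test on the recovered reads gave the same 1 and 0 members, against 10.2% and 5.57% of genes. MYC footprint signal was 5929 and 6010 with DMSO and 13597 and 15048 with STM2457, from 1247 to 3854 recovered reads per library. The STM2457 libraries lay far above both DMSO libraries, which differed little from each other. The log2 fold change was 1.26 (SE 0.08, limma adjusted p = 3.95e-18), and 99 of 10906 genes had a larger footprint increase.

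The other members had fewer footprint reads than MYC, and their intervals were wider. MAX, the shared partner, had a footprint signal of 1368 and 1441 with DMSO and 1705 and 1464 with STM2457, a log2 fold change of 0.17 (95% confidence interval -0.07 to 0.41). MGA was at 1712 and 1778 against 2195 and 1929, a change of 0.24 (0.01 to 0.46, limma adjusted p = 0.156). MNT was at 264 and 279.5 against 357 and 390, a change of 0.46 (0.04 to 0.88, limma adjusted p = 0.143). For these 3 genes the STM2457 libraries lay above the DMSO libraries, but none passed the adjustment over all genes.

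MYCL footprints were at 86.9 and 106 with DMSO and 129 and 141 with STM2457, resting on 22 to 36 reads per library, with a log2 fold change of 0.48 (95% confidence interval -0.19 to 1.16). MXD3 was at 190 and 178 against 190 and 191, a change of 0.05 (-0.48 to 0.58). MXI1 was at 354 and 313 against 277 and 273, a change of -0.27 (-0.70 to 0.16), and was the only member whose STM2457 footprint libraries both lay below the DMSO libraries. MXD1 was at 135 and 164 against 141 and 102, with 26 to 42 reads per library and overlapping arms, a change of -0.31 (-0.95 to 0.32).

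MXD4 footprints were at 927 and 906 with DMSO but at 665 and 1097 with STM2457, so that the STM2457 libraries bracketed the control libraries. The log2 fold change of -0.10 became 0.26 without the first STM2457 library and -0.46 without the second. Counting non-overlap alone, 6 of 9 members were higher and 1 lower in footprints. Such separation is common with 2 libraries per arm, at 25.7% and 28.4% of all tested genes. The 6 include MXD3, which was in effect tied, with 189.894 in its highest DMSO library and 189.900 in its lowest STM2457 library.

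**Figure D3:**
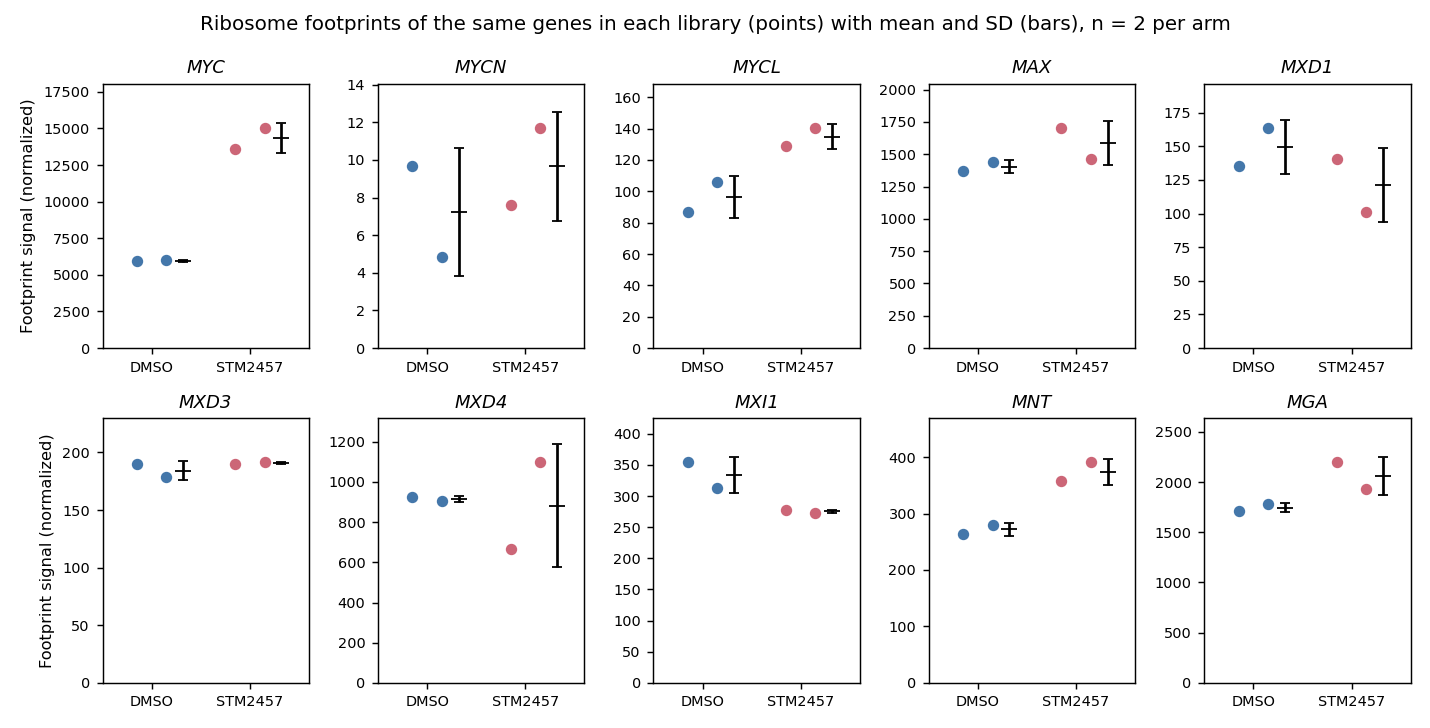
Normalized ribosome footprint signal (y axis, from 0, own scale per gene) of the network genes in each library (points), with mean and SD (bars, n = 2 per arm). MYC rises from 5929 and 6010 to 13597 and 15048, and the 2 STM2457 libraries of MXD4 (665 and 1097) lie on either side of its DMSO libraries.

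Translational efficiency is footprint signal relative to RNA signal, both from the translation table, and limma tested whether treatment changed footprints and RNA unequally, with a variance weight for each assay. Of 9 tested members 0 were called higher and 0 lower with limma, against 0.229% and 0.807% of all 10906 genes. At an unadjusted p under 0.05 the count was also 0, and no member passed with the edgeR interaction (0.862% of genes higher and 3.92% lower) or with a shared spread for both assays (3.11% and 4.46%). For MYC the log2 change of efficiency was 0.08 with a 95% confidence interval of -0.13 to 0.29 (limma adjusted p = 0.913), so a change of efficiency as large as that of its RNA lies outside the interval. In the RNA signal that this efficiency uses, MYC changed by 1.18, against 1.27 in the counts. The edgeR interaction, which takes the RNA counts, put MYC efficiency at 0.0003. In the limma fit MAX was at -0.02 (-0.26 to 0.22) and MGA at 0.12 (-0.25 to 0.49).

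The members with few footprints allow less to be said about efficiency. MXD1 had the lowest value, -0.61 (95% confidence interval -1.28 to 0.05, limma adjusted p = 0.584), with per-library efficiencies of 1.77 and 2.15 with DMSO and 1.49 and 1.08 with STM2457. These arms did not overlap, and neither did those of MXD3, MXI1 and MNT. Each per-library efficiency divides by the mean RNA signal of its arm, so it leaves out the spread of RNA. The share of all genes with such separation in efficiency was not computed. In footprint signal alone, with the same 2 libraries per arm, it was 25.7% higher and 28.4% lower, so separation by itself is common. The log2 change of MXD1 ranged from -0.85 to -0.38 when single libraries were left out. MXD3 was at -0.25 (-0.95 to 0.45), MXI1 at -0.17 (-0.50 to 0.17), MXD4 at -0.14 (-0.54 to 0.27), MYCL at -0.13 (-0.86 to 0.60) and MNT at 0.21 (-0.28 to 0.70). A p that misses the threshold does not show that efficiency was equal in these genes.

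**Figure D4:**
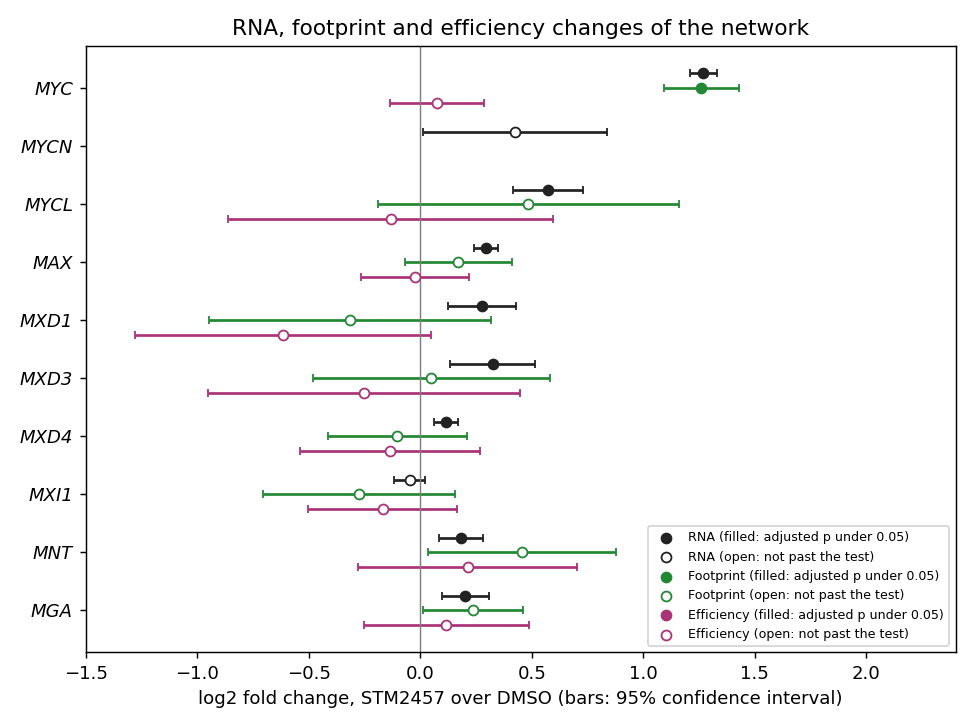
log2 fold change of STM2457 over DMSO (x axis) in RNA, footprints and efficiency for each member, with 95% confidence intervals (bars), filled where the adjusted p is under 0.05 and open where it is not. The RNA change of MYC in the counts and its footprint change lie together at 1.27 and 1.26. Efficiency, at 0.08, is relative to the RNA signal of the translation table, in which MYC changed by 1.18. The footprint intervals of MXD1 and MYCL span more than 1 log2 unit.

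Efficiency also differed between members in the DMSO arm. In the authors' deposited table the DMSO efficiency of MYC was 2.16, above 94.2% of the genes in the table, where the median gene was at 1.01. MXD1 followed at 1.96 in the authors' deposited table, then MGA and MAX (1.44). MNT, MYCL (1.08) and MXD4 (0.99) lay near the median, and MXD3 (0.78) and MXI1 (0.67) were lowest in the authors' deposited table. Per library, MYC at 2.12 and 2.15 overlapped MXD1 at 1.77 and 2.15, and MYCL, MNT and MXD4 overlapped one another or their neighbours, whereas MGA (1.59 and 1.65), MAX (1.40 and 1.47), MXD3 (0.73 and 0.78) and MXI1 (0.63 and 0.71) each kept apart from the next gene in the order. The region over which the authors counted each gene is not given in the sources used here, so this order is that of the deposited ratio. MYCN is left out of it, since its footprints were 1 to 3 reads per library.

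The wider pathway was followed with lists of genes named for their place around the network. In the MLX branch, a parallel set around the MAX-like factor MLX, MLX rose by 0.17 in RNA (91.3 ± 1.97 to 103 ± 3.29 CPM, SD, n = 4) and by 0.45 in footprints (limma adjusted p = 0.0049). With spike-in scaling MLX RNA was at -0.02 and did not pass (edgeR adjusted p = 0.756), while MLXIP and MLXIPL passed as lower, as did 47.1% of all genes. With TMM scaling MLXIP, at 0.02, and MLXIPL, at -0.15, did not pass in RNA. So 1 of the 3 genes (33.3%) was called higher and 0 lower, against 26.2% and 21.6% of all genes.

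The list of MYC activation cofactors holds 16 genes and also takes in BIN1 and ZBTB17, so not all of them serve activation. Of the 16, 6 (37.5%) rose and 5 (31.3%) fell in RNA, against 26.2% and 21.6% of all genes. Their median log2 fold change was -0.04 (all genes 0.00). With spike-in scaling 1 (6.25%) was higher and 10 (62.5%) lower, against 12.1% and 47.1%. CCNT1, the cyclin of the elongation kinase P-TEFb, rose by 0.84 in RNA, from 84.8 ± 2.80 to 151 ± 9.11 CPM (SD, n = 4), and by 1.00 in footprints. Its kinase CDK9 rose by 0.30 and HCFC1, a chromatin-bound MYC partner, by 0.21 in RNA. Of 17 SIN3 corepressor subunits, through which the MXD proteins act, 7 (41.2%) rose and 3 (17.6%) fell with a median of 0.08, against 26.2% and 21.6% of all genes. With spike-in scaling 3 (17.6%) were higher and 7 (41.2%) lower, near the 12.1% and 47.1% of all genes. ING1 (0.98) and ING2 (0.85), which read histone methylation for the complex, and the scaffold SIN3A (0.46) rose in RNA, and ING1 and SIN3A also rose in footprints by 0.65 and 0.35.

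MGA's partners in its Polycomb complex were called higher in 5 (41.7%) and lower in 0 of 12 cases, against 26.2% and 21.6% of all genes, with a median of 0.03. With spike-in scaling 1 (8.33%) was higher and 7 (58.3%) lower, against 12.1% and 47.1%. L3MBTL2 (0.29), RYBP (0.33) and the methyltransferase gene EHMT1 (0.19) had the smallest p in RNA, and none of the 12 passed in footprints with limma. Of 16 genes that control MYC protein turnover, 5 (31.3%) were called higher and 5 (31.3%) lower (median -0.04), where all genes gave 26.2% and 21.6%. With spike-in scaling 3 (18.8%) were higher and 11 (68.8%) lower, against 12.1% and 47.1%. USP36, a nucleolar deubiquitinase of MYC, rose by 0.48 in RNA and 0.45 in footprints, and the ubiquitin ligase genes FBXL14 (0.55) and BTRC (0.32) rose in RNA.

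Of 17 genes for proteins that bind MYC mRNA or control its decay, 5 rose and 4 fell in RNA (median 0.00), and with spike-in scaling 4 (23.5%) were higher and 9 (52.9%) lower, against 12.1% and 47.1% of all genes. YTHDF2, the m6A reader linked to mRNA decay, rose by 1.603 in RNA and by 1.69 in footprints on the log2 scale. ZFP36L1, which binds AU-rich elements, rose by 0.78 in RNA and 0.87 in footprints, and the poly(C)-binding protein gene PCBP1 rose by 0.41 in RNA. In footprints HNRNPD, an AU-rich element binding protein, and PTBP1, a splicing and translation regulator, fell by 0.31 and 0.27. The list moved in both directions, at RNA shares of 29.4% higher and 23.5% lower that lie near the 26.2% and 21.6% of all genes.

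MYC-induced growth targets, a list of 65 genes of ribosome production, metabolism and the cell cycle, were called higher in 25 cases (38.5%) and lower in 10 (15.4%) in RNA, against 26.2% and 21.6% of all genes. Their median log2 fold change was 0.05 where that of MYC was 1.27, and with spike-in scaling 8 (12.3%) were higher and 35 (53.8%) lower, near the 12.1% and 47.1% of all genes. The smallest p were those of BYSL (0.85), needed for the small ribosomal subunit, POLR1B (1.00), a subunit of RNA polymerase I, and PPRC1 (0.69), a coactivator of mitochondrial genes. POLR1B went from 94.7 ± 1.23 to 189 ± 9.94 CPM (SD, n = 4). In footprints 7 (11.3%) of 62 tested targets rose and 9 (14.5%) fell, against 9.59% and 6.13% of all genes, with a median of -0.09 against -0.02 for all genes. POLR1B rose there by 1.18, PPRC1 by 0.95 and BYSL by 0.82, while NPM1, a nucleolar chaperone, fell by 0.42 and LDHA, lactate dehydrogenase, by 0.24.

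The letters of the E-box occurred in windows of 30 of 53 of these genes with a RefSeq window (56.6%) against 12.3% of the 12103 tested genes with one. Of the 30 targets with the letters CACGTG, 8 were called higher in RNA, with a median log2 fold change of -0.02. Of the 23 without them, 10 were called higher, with a median of 0.09. Of all genes tested with TMM scaling, 26.2% were called higher, with a median of 0.00, and the 8 of 30 lie near that share. The split was not made with spike-in scaling, and a part of the letters in these changes was not tested. Of 11 genes that MYC is known to repress, 6 (54.5%) were called higher and 1 (9.09%) lower in RNA (median 0.23), against 26.2% and 21.6% of all genes. With spike-in scaling 3 (27.3%) were higher and 4 (36.4%) lower, against 12.1% and 47.1%. NDRG1 (0.62 in RNA and 0.62 in footprints), GAS1 (0.91 in RNA) and the cell cycle inhibitor gene CDKN2B (0.83 and 0.90) rose, and the damage-response gene GADD45A fell by 0.32 in RNA.

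**Figure D5:**
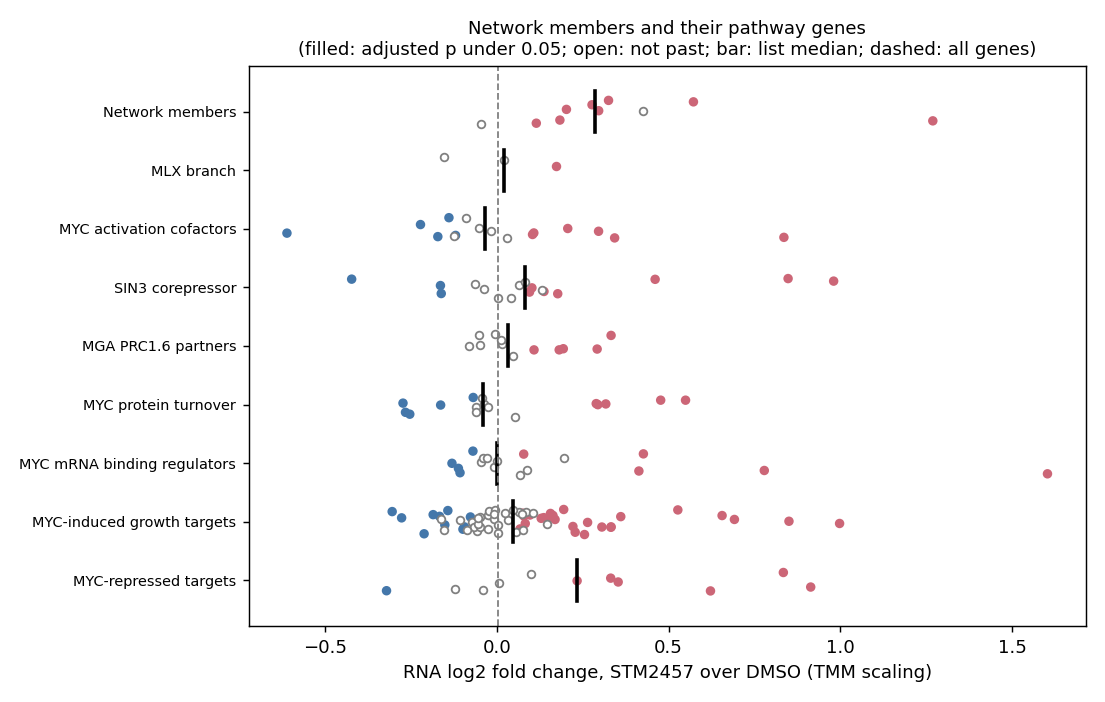
RNA log2 fold change of STM2457 over DMSO (x axis, TMM scaling) for every tested gene of the network and of 8 pathway lists (rows), coloured where the edgeR adjusted p is under 0.05, with the list median as a black bar and the median of all genes as a dashed line. The network's median (0.29) lies to the right of those of the growth targets (0.05) and the mRNA-binding regulators (0.00), and MYC is its most distant point.

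The genes whose RNA followed MYC most closely over the 8 RNA-seq libraries were PLEKHM1, ADO, CSTF1, TXLNA and ZNF703, with Pearson r of log2 CPM between 0.9991 and 0.9995 among 9733 candidate genes of at least 10 CPM. This likeness is mostly that of the arms, since 631 candidates had r above 0.99. In size they differed, from a log2 fold change of 0.31 for TXLNA to 1.64 for ZNF703, and in footprints the changes began at 0.12 for TXLNA.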

How the data were processed

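The authors deposited raw read counts per gene for 8 RNA-seq libraries and a table with a normalized signal per RNA-seq and Ribo-seq library, efficiency as a ratio of mean signals, and its log2 change, per the file headers. In the table's 12224 genes the authors' mean RNA column averages replicates 1 to 3 and leaves out replicate 4. Its control columns are headed WT and were taken as the DMSO arm, the only control the labels give. In the list per the submitters' processing notes, STAR 2.7.3a, UMI-tools 1.1.2, featureCounts of Subread 2.0.3 and DESeq2 are named without roles, and GRCh38.p12 as the build. Whether counting used strand is not given in the sources used here. Footprint signals were whole multiples of 1 read (tolerance 0.1) in 100% of genes, so reads were recovered.

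RNA counts were tested with edgeR 4.0.16 (R 4.3.3; TMM, filterByExpr, quasi-likelihood), spike-ins left out. SE is the absolute log2 fold change over the square root of F. Footprints and efficiency were tested with limma 3.58.1 on log2(signal + 1), a scale that understates changes of low genes, for genes averaging 10 or more recovered footprint reads. Efficiency used all 12 libraries. Benjamini-Hochberg adjusted p under 0.05 over all tested genes was the threshold, and the fits were tested on simulated data. Alternatives included DESeq2 1.42.0.

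Members, lists and filters were chosen with earlier results of these data known. All members are named, and per list the 3 genes with the smallest RNA p, with further genes that passed in footprints chosen after their values were seen, as was GADD45A. Genes like MYC were the 5 with the highest correlation. Promoters come from RefSeq, GRCh38.p14. Confidence intervals are at 95% and cover the spread between these libraries only, as edgeR and limma estimate it, in part from other genes.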

Additional observations from a re-analysis of the deposited data

How the results depend on the processing

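Of 10 members in RNA, the 8 called higher became 2 with spike-in scaling and 3 with spike-in scaling without the fourth STM2457 library, which had the highest spike-in share (this alternative was added once the data had been seen). The 0 called lower became 1 in both and 1 with the RNA signal of the series table, likewise added later. Leaving out single RNA-seq libraries gave 8 to 9 members higher and 0 to 0 lower. In footprints leaving out single libraries gave 1 to 1 higher and 0 to 0 lower, and in efficiency 0 to 0 in each direction. With spike-in scaling the log2 fold change of MXD4 RNA turned to -0.0806 and that of MNT RNA to -0.0141, and without the fourth STM2457 library to -0.0468 and -0.00876. Spike-in scaling put the median gene at -0.19 in place of 0.00. Without single libraries, the log2 change ran from -0.463 to 0.259 for MXD4 footprints, from -0.496 to 0.226 for MXD4 efficiency, from -0.275 to 0.00958 for MYCL efficiency and from -0.132 to 0.0879 for MAX efficiency. Other causes of these changes were not tested. Same-numbered libraries of the arms correlated at 0.08 to 0.23 in RNA and 0.01 in footprints, and not every RNA-seq library correlated best with its own number, so the numbers were not taken to pair them. In RNA the arms did share a difference between replicates 1 and 2 and replicates 3 and 4. Correlations between the arms were 0.08 to 0.27 within these pairs of replicates and -0.26 to -0.09 between them. The RNA test did not model that difference, and its origin was not tested. With the replicate block 8 members were called higher and 0 lower in RNA, 1 and 0 in footprints and 0 and 0 in efficiency. Efficiency calls over all genes numbered 25 higher and 88 lower, against 339 and 486 with a shared spread and 94 and 428 with the edgeR interaction, and no member passed in any of them. MYC stayed between 1.07 and 1.29 in RNA and between 1.19 and 1.33 in footprints over all alternatives. Footprint depth limits MYCN, MXD1 and MYCL.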

Other observations

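PVT1, the noncoding neighbour of MYC, had 406 to 431 counts per DMSO library and 387 to 427 per STM2457 library, a log2 fold change of 0.09 that did not pass the RNA test (edgeR adjusted p = 0.2). The other neighbouring or antisense transcripts of members were at the edge of detection, with 1 to 5 counts per library for CASC11, 0 to 2 for MYCNOS and 2 to 11 for MYCL-AS1, and 0 in every library for MYCNUT and MYCLP1.

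The RNA signal of the translation table was not in a fixed proportion to the RNA counts of the same gene. With DMSO it amounted to 21.9 signal units per CPM for MYC and 3.94 for MXD1, around a median of 15.5 over all genes. The region counted for this signal is not given in the sources used here. The RNA changes of MYC, MXD4 and MAX were also smaller in this signal, at 1.18, 0.03 and 0.19 against 1.27, 0.11 and 0.30 in the counts. Those of MYCL, MXD1 and MNT were larger in it, at 0.62, 0.30 and 0.24 against 0.57, 0.28 and 0.18.

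No library of any member lay outside the others of its arm by Dixon's criterion in the 20 groups of 4 libraries tested in RNA.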
